A study of Mus musculus with 23 samples.

Results

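The genes described here encode the proteasome, the barrel-shaped protease that degrades proteins tagged with ubiquitin, together with its assembly chaperones, its activators and an inhibitor. They were chosen by name (PSMA to PSMG followed by a number, POMP and ADRM1). Of 89 entries of the deposited table with such a name, 38 carried no values, and the other 51 entries held 49 distinct names. PSMA8, a testis form of an alpha subunit, reached 1 CPM (a count scaled to a common library total) in 2 of 23 libraries, and PSMB11, the thymus catalytic subunit, in 0. The remaining 47 names reached 1 CPM in 23 of 23 libraries. One of them, PSMC3IP, is a meiotic recombination factor that shares only the name, so 46 proteasome genes were described among 11633 genes tested. Where a name had 2 entries (ADRM1 and PSME2), the entry of higher mean was used. The subunit genes PSMA1, PSMB3 and SEM1 were not analysed here.

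The libraries came from mouse B lineage cells enriched by magnetic negative selection, and their RNA was sequenced as stranded total RNA. Tumor cells, labelled as malignant plasma cells, came from untreated IL6Myc transgenic mice: 7 libraries from the mesenteric lymph node (MLN) and 7 from the spleen, from 8 mice, of which 6 gave both tumors. The controls were spleen B cells of wild-type Balb/c mice, with 4 untreated libraries called quiescent and 5 libraries called activated, from cells stimulated for 16 hours by 1 µg/ml LPS (lipopolysaccharide, a mitogen of B cells). No label states that each control library is its own animal, and p-values that rest on them may reflect technical spread only. The sources used here do not give age, the strain of the IL6Myc mice, their stage of disease or the promoters of the transgenes. Genotype and disease cannot be told apart in any comparison of tumors with controls, and neither can mitogen and culture in that of activated with quiescent cells. Tissue differs as well, because all controls came from the spleen and 7 tumor libraries from the MLN. Between tumors and activated cells, disease and the 16 hours of LPS cannot be told apart either.

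The proteasome core particle is a stack of alpha rings, which gate the entry, and beta rings, which hold the catalytic sites. PSMB5, PSMB6 and PSMB7 are the constitutive catalytic subunits; in immune cells PSMB8, PSMB9 and PSMB10 can take their respective places to form the immunoproteasome, which cuts peptides suited to MHC class I molecules. A regulatory particle of ATPases and non-ATPase subunits caps the core, recognises ubiquitin, removes it and unfolds the substrate. Plasma cells make and discard large amounts of immunoglobulin, and inhibitors that bind PSMB5 are standard drugs against multiple myeloma.

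The total count ran from 13328866 to 25045814 per library; spleen tumors were the shallowest (up to 20091467) and activated libraries the deepest (from 20194017). Immunoglobulin genes took 2.23% to 2.79% of the counts in quiescent libraries and 0.688% to 0.842% in activated ones. In tumor libraries their share ran from 1.03% to 26.3%, and it was below every quiescent library in 4 of them, namely the MLN tumor of mouse 1611 and the spleen tumors of mice 1610, 1612 and 1615. In tumors against quiescent cells 36.8% of all genes tested were higher and 31.9% lower. Of 8 plasma cell markers, 4 passed the test as higher in tumors than in quiescent cells and 0 as lower, and the 9 B cell markers were all lower than in quiescent cells. Against activated cells 4 B cell markers were lower, 2 (BLK and CR2) were higher and 3 did not pass. Of all genes 27.0% were lower and 36.2% higher in that comparison. Markers of other cells were also present: 9 of 9 measured macrophage markers, 7 of 7 neutrophil markers, 6 of 6 erythroid markers, 8 of 9 T cell markers, 3 of 5 NK cell markers (of the others, PRF1 was lower and KLRB1 did not pass), 4 of 5 dendritic markers and 7 of 8 stromal markers were higher in tumors than in quiescent cells. The summed level of the macrophage markers was 14.3 to 125 CPM in quiescent, 8.86 to 20.7 in activated, 364 to 2439 in MLN tumor and 157 to 2150 in spleen tumor libraries. That of the erythroid markers was 8.44 to 23.4, 0.288 to 2.36, 12.5 to 1321 and 131 to 3744 CPM in the same order, and that of the neutrophil markers 1.63 to 4.23, 3.74 to 7.18, 16.6 to 1323 and 10.2 to 2628. Summed T cell markers were at 75.8 to 82.7 CPM in quiescent, 57.5 to 67.2 in activated, 22.3 to 613 in MLN tumor and 34.9 to 119 in spleen tumor libraries. The summed NK cell, dendritic and stromal markers were at most 39.9, 794 and 545 CPM in any library, each in an MLN tumor. The only measured markers at 0 throughout a group were LUM in quiescent cells and CLEC9A, ELANE, COL1A2 and PDGFRA in activated cells. The part of these cells in the results below was not tested. In such mixed samples fewer cells of a type and less RNA per cell cannot be told apart.

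Promoter sequences are shown because most of the genes passed as higher in tumors than in quiescent cells. The 13 members that did not pass included the 3 immunoproteasome genes. RefSeq windows from 250 bases before to 50 bases after the start site (build GRCm38.p6, while the submitters' processing notes name GRCm39) were matched by symbol for 39 of the 46 genes, as 42 windows. PSMB5 (chr14:54617996-54618145, minus strand), PSMB6 (chr11:70525207-70525356, plus strand) and PSMD14 (chr2:61711519-61711693, plus strand) are shown for the genes that rose, and PSMB8 (chr17:34198045-34198194, plus strand) and PSMB9 (chr17:34187331-34187555, minus strand) for the immunoproteasome. Each line ends at the base before the start site, and capitals mark the motif matches named next.
PSMB5: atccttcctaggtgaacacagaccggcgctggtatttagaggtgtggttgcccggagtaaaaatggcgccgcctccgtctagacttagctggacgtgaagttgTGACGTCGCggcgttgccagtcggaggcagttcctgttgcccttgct
PSMB6: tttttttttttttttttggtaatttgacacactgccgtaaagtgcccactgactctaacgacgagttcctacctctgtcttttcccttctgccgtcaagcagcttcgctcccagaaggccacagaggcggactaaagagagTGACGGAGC
PSMD14: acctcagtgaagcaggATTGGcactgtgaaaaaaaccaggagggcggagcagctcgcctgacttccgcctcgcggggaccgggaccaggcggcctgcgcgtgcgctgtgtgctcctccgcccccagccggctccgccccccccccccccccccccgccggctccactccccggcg
PSMB8: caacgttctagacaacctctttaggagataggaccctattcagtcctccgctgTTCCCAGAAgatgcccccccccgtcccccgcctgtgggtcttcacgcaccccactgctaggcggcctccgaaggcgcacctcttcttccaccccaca
PSMB9: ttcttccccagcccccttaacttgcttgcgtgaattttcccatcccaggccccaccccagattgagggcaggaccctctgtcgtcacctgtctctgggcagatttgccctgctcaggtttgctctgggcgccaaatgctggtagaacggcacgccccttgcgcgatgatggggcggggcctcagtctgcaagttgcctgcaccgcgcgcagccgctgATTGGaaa
The capitals in PSMB5 and PSMB6 are matches to TGACNNNGC, the core of the antioxidant response element that NFE2L1 and NFE2L2 can bind, at positions -47 and -9 from the start. In PSMD14 and PSMB9 they are the reverse strand of CCAAT, at -159 and -8, and in PSMB8 a match to TTCNNNGAA, the core of the gamma-activated site that STAT proteins can bind, at -97. The PSMB9 window reaches back to the start of TAP1, the peptide transporter gene that is read in the opposite direction.

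Over both strands, TGACNNNGC was found in the windows of 7 of the 39 genes (ADRM1, PSMB5, PSMB6, PSMC6, PSMD9, PSMD12 and PSME4), and in 12.4% of all 32851 windows of the same length. CCAAT was found in 12 genes against 37.4% of all windows, CACGTG, the E-box that MYC can bind, in 4 genes against 7.15%, TTCNNNGAA in 3 genes (PSMB8, PSMD2 and PSMG1) against 8.3%, and the core of the interferon response element (GAAA, NN, GAAA without a break) in 4 genes against 3.44%. None of the motifs contains another, and a match is a description of the letters only. Of the 7 genes with TGACNNNGC, 4 rose in tumors against quiescent cells (PSMB5, PSMB6, PSMD9 and PSMD12), compared with 33 of all 46 members, and 3 did not pass (ADRM1, PSMC6 and PSME4). The PSMD9 call was lost with quantile normalization (adjusted p 0.178) and with the MLN tumors alone (0.176).

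As a whole, the 46 genes took the smallest part of the transcriptome in quiescent cells and the largest in activated cells. Their summed share of all counts was 0.386%, 0.402%, 0.393% and 0.402% in the 4 quiescent libraries and 0.823%, 0.810%, 0.748%, 0.787% and 0.765% in the 5 activated libraries. In MLN tumors it was 0.452% at the lowest, 0.493% at the median and 0.602% at the highest, and in spleen tumors 0.473%, 0.528% and 0.642%. Every tumor library lay above every quiescent and below every activated library. This share also falls when immunoglobulin takes more of the counts, so the tests below use CPM scaled by TMM factors, which compare libraries by the bulk of their genes.

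Against quiescent cells, 33 of the 46 genes were higher in tumor mice and 0 were lower, while 36.8% of all genes tested were higher and 31.9% lower. At an unadjusted p under 0.05, 1 member (PSMB10) was lower, as were 33.2% of all genes. The median log2 change of the members was 0.45, and that of all genes 0.08. Tumor mice and quiescent libraries did not overlap for 25 members, all higher in tumors (23.3% of all genes). Against activated cells, 39 of the 46 were lower and 0 higher, with 27.0% of all genes lower and 36.2% higher. At an unadjusted p under 0.05 the number of higher members was also 0, against 37.9% of all genes. The members' median was -0.46 and that of all genes 0.09, and 22 members did not overlap, all lower in tumors (17.6% of all genes). In the control cells themselves, 42 members were higher after LPS and 1, PSMB10, was lower, against 25.5% and 34.1% of all genes, with medians of 0.99 and -0.15. Of the members, 44 did not overlap in the higher direction (29.8% of all genes). The 2 comparisons with tumors use the same tumor mice, and each control group also enters the comparison of the controls, so the 3 sets of values are not independent.

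Quantile normalization moved the whole scale more than the members. With limma-voom on quantile-normalized values, 34.4% of all genes called against quiescent cells were higher, compared with 53.6% in the main test, and 34.0% compared with 57.3% against activated cells. The median of all genes moved from 0.08 to -0.13 and from 0.09 to -0.14, but that of the members from 0.45 to 0.48 and from -0.46 to -0.48. Without mouse 1616 the median of all genes against activated cells turned to -0.03 and that of the members moved to -0.65, and 4232 genes were lower and 3962 higher, compared with 3140 and 4209 with that mouse. With quantile normalization 38 members were higher and 1 lower against quiescent cells, and 34 lower and 1 higher against activated cells.

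**Figure D1:**
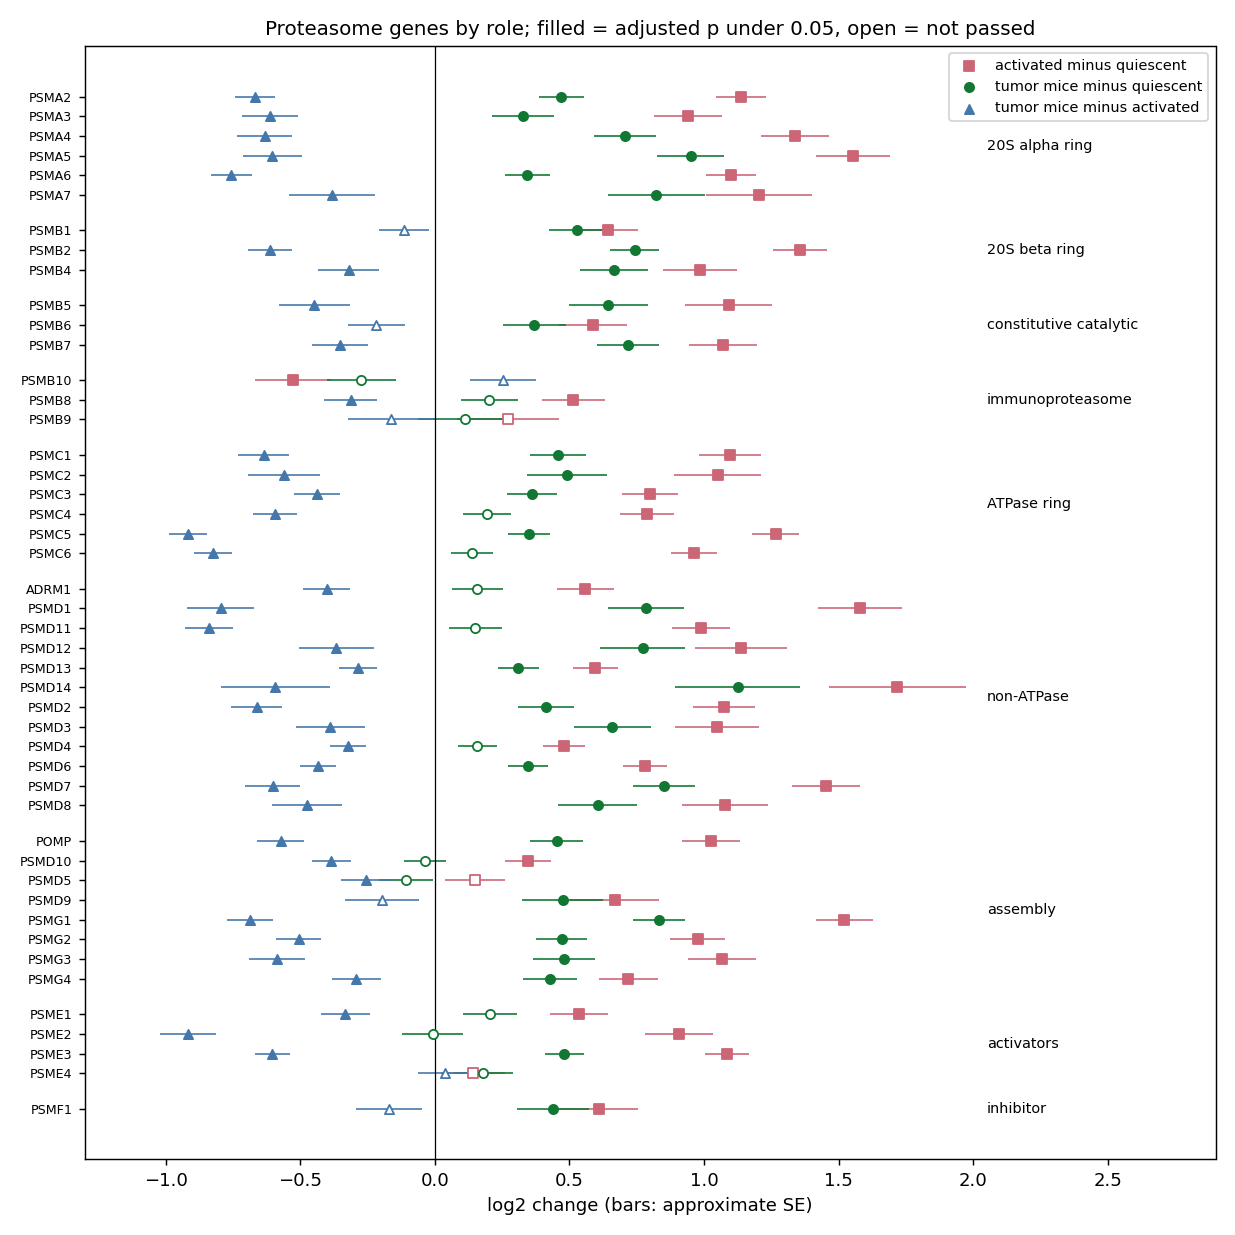
Log2 change of the 46 proteasome genes, grouped by role, for activated against quiescent cells (squares), tumor mice against quiescent cells (circles) and tumor mice against activated cells (triangles). Bars are approximate standard errors and filled symbols passed the test. The 13 genes with an open circle include the 3 immunoproteasome genes, and PSMB10 has the one filled square below 0.

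Of the core particle genes without catalytic sites, 6 alpha subunits (PSMA2 to PSMA7) and PSMB1, PSMB2 and PSMB4 were tested. All of them were higher in tumors than in quiescent cells (36.8% of all genes) and higher after LPS (25.5%). Against activated cells 8 of these 9 were lower in tumors (27.0% of all genes), with PSMB1 the exception at -0.11 ± 0.09 (log2, SE). Without mouse 1616 PSMB1 passed too (-0.29, adjusted p 0.000108). PSMB4 lost its call in 5 alternatives, among them the spleen tumors alone (adjusted p 0.161) and leaving out the 4 tumors of low immunoglobulin share (0.274), and moved from -0.32 to -0.52 without mouse 1616. PSMA3 lost its call against quiescent cells without quiescent library 1 (adjusted p 0.0505) or 2 (0.0514). PSMA5 had the largest tumor change of the alpha ring. Its level was 51.0, 56.6, 55.0 and 59.2 CPM in quiescent and 183, 184, 158, 174 and 154 CPM in activated libraries, and the lowest, median and highest tumor libraries were at 85.7, 103 and 141 CPM in the MLN and 83.0, 112 and 164 CPM in the spleen. All tumor libraries were above the quiescent ones, and the highest spleen tumors reached into the activated range. The log2 change was 0.95 ± 0.13 (SE, adjusted p 1.1e-05) against quiescent and -0.60 ± 0.11 (adjusted p 0.00017) against activated cells. PSMA7 was the least certain of the alpha ring: its change of -0.38 against activated cells (adjusted p 0.0466) was lost in 17 of 20 alternatives, where the adjusted p reached 0.249, while without mouse 1616 it was -0.65.

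The 3 constitutive catalytic genes rose in tumors and after LPS. PSMB5, which carries the chymotrypsin-like activity and the drug site, was at 27.0, 25.6, 29.6 and 24.6 CPM in quiescent and 63.4, 60.7, 54.3, 57.2 and 62.4 CPM in activated libraries. MLN tumors ran from 33.8 over a median of 39.9 to 61.7 CPM and spleen tumors from 28.9 over 43.6 to 62.8 CPM. The spleen tumor of mouse 1613 lay within the quiescent range, and the tumors of highest PSMB5, those of mouse 1616 and the MLN tumor of mouse 1610, lay within the activated range. PSMB5 was higher in tumor mice than in quiescent cells by a log2 change of 0.64 ± 0.15 (SE, adjusted p 0.0012) and lower than in activated cells by -0.45 ± 0.13 (adjusted p 0.0071). The second call was lost without the 4 tumors of low immunoglobulin share (-0.31, adjusted p 0.0939).

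PSMB7, the subunit of trypsin-like activity, showed 53.3, 62.9, 58.2 and 58.2 CPM in quiescent and 139, 137, 113, 120.4 and 129 CPM in activated libraries. Its lowest, median and highest tumor values were 71.5, 97.9 and 135 CPM in the MLN and 76.6, 111 and 118 CPM in the spleen, all above the quiescent libraries. The change was 0.72 ± 0.12 (SE, adjusted p 6.6e-05) against quiescent and -0.35 ± 0.10 (adjusted p 0.007) against activated cells. The latter was lost with the spleen tumors alone (adjusted p 0.051) and without the 4 tumors of low immunoglobulin share (-0.23, adjusted p 0.122). PSMB6, the caspase-like subunit, was the flattest of the 3. It was at 69.0, 83.7, 77.0 and 75.2 CPM in quiescent, 122, 123, 115, 119 and 119.6 CPM in activated, 76.2, 96.1 and 140.3 CPM in MLN tumor and 75.4, 102 and 156 CPM in spleen tumor libraries (lowest, median, highest). The tumors overlapped both controls, with a log2 change of 0.37 ± 0.12 (SE, adjusted p 0.0102) against quiescent and -0.22 ± 0.11 (adjusted p 0.0845) against activated cells. The latter passed without mouse 1616 (-0.39, adjusted p 0.000412) and with no filter on low counts (0.0371), and the former rose to 0.61 without the 4 tumors of low immunoglobulin share.

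Of the immunoproteasome genes, 0 of 3 passed in tumors against quiescent cells in either direction, and the difference from the constitutive genes was not tested. DESeq2 called PSMB8 higher and none lower, and at an unadjusted p under 0.05 PSMB10 was lower. PSMB8, the immune counterpart of PSMB5, was at 209, 234, 212 and 195 CPM in quiescent and 344, 329, 261, 327 and 329 CPM in activated libraries. Its lowest, median and highest tumor values were 195, 255 and 352 CPM in the MLN and 179, 244 and 298 CPM in the spleen. The tumors covered both control ranges, with a change of 0.20 ± 0.11 (SE, adjusted p 0.103) against quiescent and -0.31 ± 0.10 (adjusted p 0.0113) against activated cells, and PSMB8 was higher after LPS by 0.51 ± 0.12 (adjusted p 0.0013). The first of these passed with RLE factors (adjusted p 0.0312), with DESeq2 (0.0192), with quantile normalization (0.000421) and without mouse 1614 (0.0417). The second was lost with quantile normalization (-0.14, adjusted p 0.166), with the MLN tumors alone (0.0933) and without the 4 tumors of low immunoglobulin share (0.0641).

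PSMB9, the immune counterpart of PSMB6, varied most of the 3 immune genes among the tumors. Quiescent libraries held 94.8, 107, 93.7 and 101 CPM and activated libraries 118, 131, 115, 133 and 129.5 CPM. MLN tumors ran from 67.4 over 100.4 to 141 CPM and spleen tumors from 47.1 over 107 to 205 CPM, so tumors lay below, within and above both controls. The 3 tumors of lowest PSMB9 (both of mouse 1616 and the spleen tumor of mouse 1611) had immunoglobulin shares of 24.6%, 18.2% and 17.5%, and the tumor of highest PSMB9, from the spleen of mouse 1615, had 1.03%. The MLN tumor of mouse 1610, with 26.3%, held 100.4 CPM, so the order was not the same throughout. No comparison of PSMB9 passed in the main test (adjusted p 0.58, 0.393 and 0.231, in the order tumor against quiescent, tumor against activated and activated against quiescent). The second did without the 4 tumors of low immunoglobulin share (-0.40, adjusted p 0.0404). In the third, every activated library lay above every quiescent one, as for 29.8% of all genes. It passed in a fit of control libraries alone with the replicate number as a block (0.35, adjusted p 8.74e-05).

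PSMB10, the immune counterpart of PSMB7, was the one member lower after LPS. It stood at 96.4, 109.7, 93.3 and 91.6 CPM in quiescent and at 79.5, 67.2, 53.1, 78.6 and 76.8 CPM in activated libraries, which did not overlap (log2 change -0.53 ± 0.14, SE, adjusted p 0.0043). Its lowest, median and highest tumor values were 58.1, 81.2 and 107 CPM in the MLN and 51.3, 72.4 and 105 CPM in the spleen, overlapping both controls. The changes of -0.27 ± 0.13 (SE, adjusted p 0.0691) against quiescent and 0.25 ± 0.12 (adjusted p 0.0789) against activated cells did not pass. The first passed without mouse 1609 (adjusted p 0.0427), without mouse 1616 (0.0496) and without the 4 tumors of low immunoglobulin share (0.0468); the second passed without mouse 1613 (0.0334), without mouse 1614 (0.0338) and with quantile normalization (0.039).

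**Figure D2:**
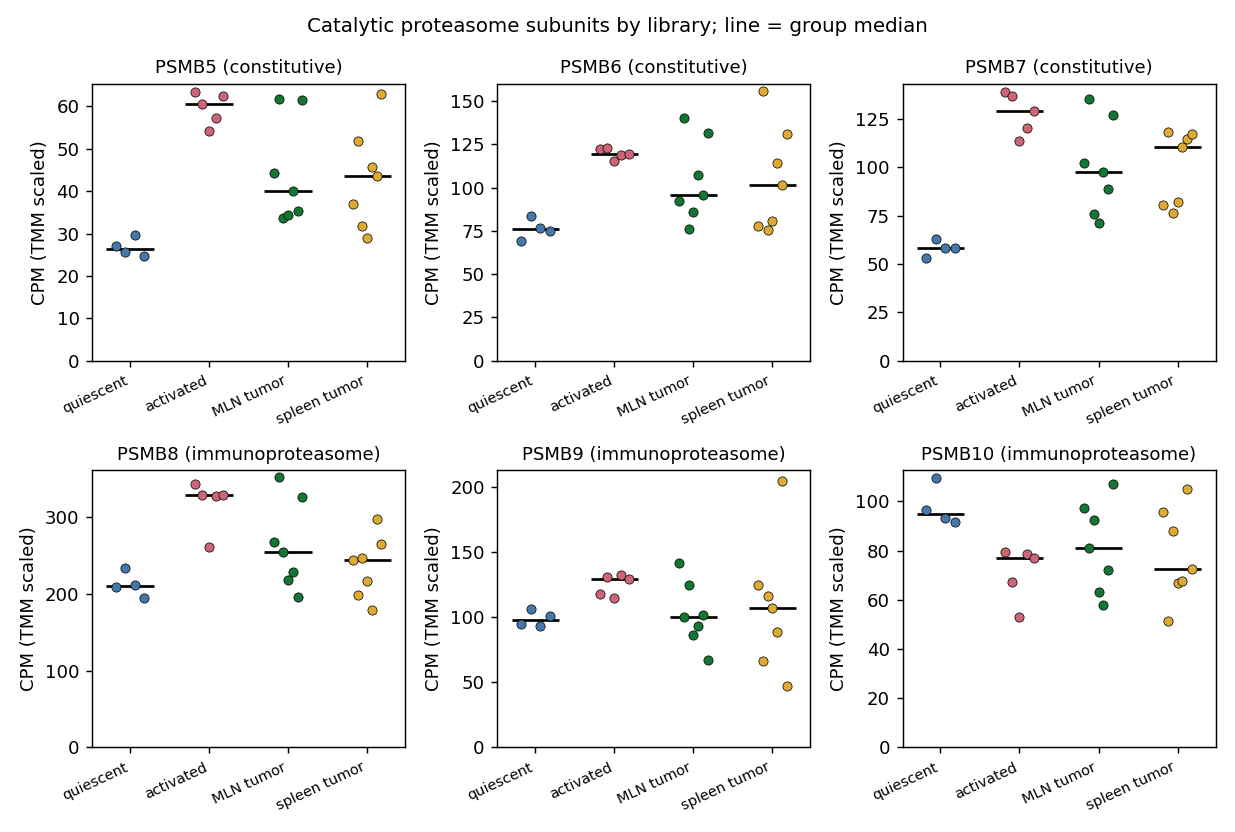
Level of the 6 catalytic subunit genes in each of the 23 libraries, in CPM scaled by TMM, with the group median as a line. The constitutive genes (top row) are low in quiescent and high in activated cells, and PSMB10 (bottom right) is highest in quiescent cells.

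Within each library the immune subunit can be set against its constitutive counterpart, per kilobase of transcript, a ratio that does not depend on scaling. PSMB8 to PSMB5 was 3.62, 4.27, 3.34 and 3.71 in quiescent and 2.53, 2.53, 2.25, 2.67 and 2.47 in activated libraries, with tumor medians of 2.68 (MLN, 2.48 to 3.52) and 3.08 (spleen, 1.79 to 3.64). The PSMB9 to PSMB6 ratio ran from 0.718 to 0.811 in quiescent libraries and from 0.569 to 0.658 in activated ones, and it had the widest range in tumors, from 0.303 to 0.968 in the MLN and from 0.212 to 1.19 in the spleen. All 3 ratios were lower in every activated than in every quiescent library.

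For PSMB10 to PSMB7 the separation was widest. The ratio was 1.60, 1.54, 1.42 and 1.39 in quiescent libraries and ran from 0.414 to 0.578 in activated ones. MLN tumors ran from 0.525 over a median of 0.745 to 1.08 and spleen tumors from 0.384 over 0.720 to 1.05, so each of the 14 tumors lay below each quiescent library. The tumors closest to quiescent cells, at 1.08, 1.05 and 1.02, were the MLN tumor of mouse 1611 and the spleen tumors of mice 1610 and 1612, which were among the 4 of low immunoglobulin share. No test was made on the ratios, because the genes were chosen with earlier results of these data known.

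**Figure D3:**
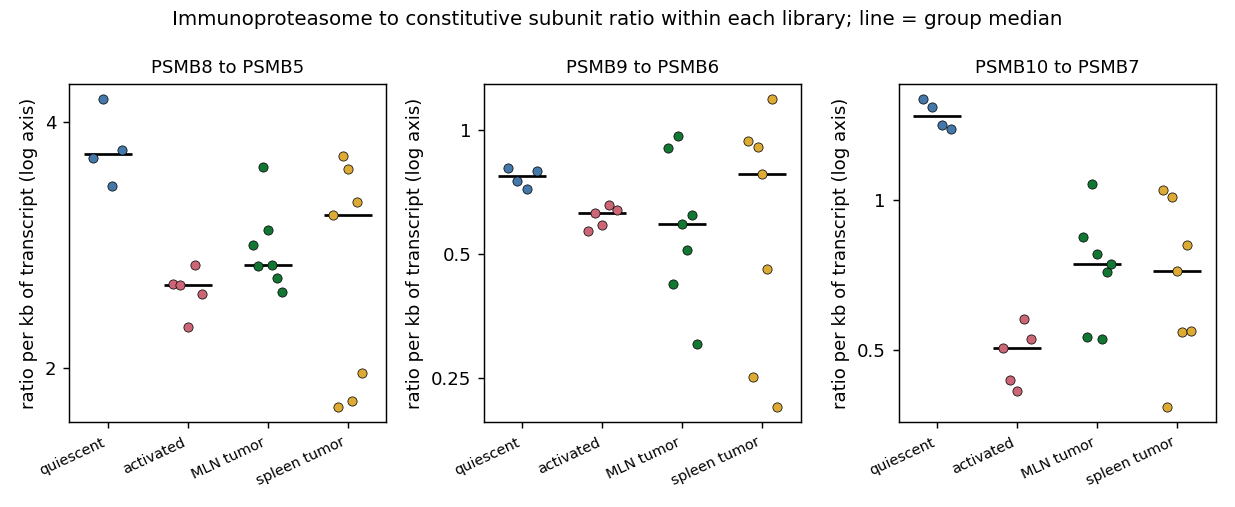
Ratio of each immunoproteasome gene to its constitutive counterpart per kilobase of transcript in each library, on a log axis, with the group median as a line. For PSMB10 to PSMB7 the 4 quiescent libraries (1.39 to 1.60) lie above all others.

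The regulatory particle rose after LPS in full, with 6 of 6 ATPases and 12 of 12 non-ATPase genes higher (25.5% of all genes). In tumors 4 of 6 ATPases and 9 of 12 non-ATPase genes were higher than in quiescent cells (36.8% of all genes). All 18 were lower in tumors than in activated cells (27.0% of all genes). Without the 4 tumors of low immunoglobulin share the call against activated cells was lost for PSMD3 (adjusted p 0.221), PSMD12 (0.365), PSMD13 (0.051) and PSMD14. With the spleen tumors alone it was lost for PSMD3 (0.269), PSMD12 (0.381), PSMD13 (0.0931) and the ubiquitin receptor ADRM1. PSMD12 lost it in 8 of 20 alternatives. Of those that did not pass against quiescent cells, PSMC4 and PSMD4 did with DESeq2 (adjusted p 0.00899 and 0.00371). PSMD14, the deubiquitinase that strips the ubiquitin chain from the substrate, had the largest change of all members. It was at 58.2, 62.0, 60.2 and 62.4 CPM in quiescent and 224, 219, 207, 203 and 192 CPM in activated libraries. Its lowest, median and highest tumor values were 86.9, 119 and 299.8 CPM in the MLN and 88.6, 118 and 224 CPM in the spleen. All tumors were above the quiescent libraries, and both tumors of mouse 1616 and the MLN tumor of mouse 1610 were above the highest activated library. The change was 1.12 ± 0.23 (log2, SE, adjusted p 0.00057) against quiescent and -0.59 ± 0.20 (adjusted p 0.0176) against activated cells. The latter was lost with the MLN tumors alone (adjusted p 0.151) and without the 4 tumors of low immunoglobulin share (-0.37, adjusted p 0.157), and was -0.92 without mouse 1616.

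PSMD7, the partner of PSMD14 in the deubiquitinating lid module, was at 59.3 to 61.9 CPM in quiescent, 167 to 183 CPM in activated, 82.8 to 156 CPM in MLN tumor and 83.9 to 157 CPM in spleen tumor libraries. The 3 ranges of quiescent, tumor and activated cells did not overlap, with changes of 0.85 ± 0.12 (SE) and -0.60 ± 0.10 in tumors against the 2 controls. PSMD1, a large scaffold of the base, had quiescent levels of 90.3, 95.8, 92.7 and 81.6 CPM and activated levels of 299, 294, 267, 278 and 272 CPM. Tumor values were 123, 148 and 202 CPM in the MLN and 123, 167 and 263 CPM in the spleen (lowest, median, highest), with changes of 0.79 ± 0.14 (SE) against quiescent and -0.79 ± 0.13 against activated cells.

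For PSMC5, PSMC6 and PSMD11 the tumors lay farther from the activated than from the quiescent level. The ATPase PSMC5 was at 76.4, 78.9, 76.6 and 78.6 CPM in quiescent and 207, 203, 181, 197.5 and 188 CPM in activated libraries, and its tumors ran from 75.2 to 116 CPM in the MLN and from 88.1 to 143 CPM in the spleen. Tumors and activated cells did not overlap, and the change of -0.92 ± 0.07 (SE, adjusted p 3.6e-08) was among the largest decreases of a member against activated cells, together with that of PSME2; against quiescent cells PSMC5 was higher by 0.35 ± 0.08. The ATPase PSMC6 and the lid subunit PSMD11 fell by 0.82 ± 0.07 and 0.84 ± 0.09 (log2, SE) against activated cells, and their changes of 0.14 ± 0.08 (adjusted p 0.126) and 0.15 ± 0.10 (adjusted p 0.178) against quiescent cells did not pass. PSMC6 did pass with RLE factors (adjusted p 0.0299), quantile normalization (0.0095), DESeq2 (0.0182) and without mouse 1612 (0.0441), and PSMD11 with quantile normalization (0.00674) and DESeq2 (0.0468). ADRM1, a ubiquitin receptor, was at 94.7 to 106 CPM in quiescent, 145 to 166 CPM in activated, 90.1 to 143 CPM in MLN tumor and 97.2 to 162 CPM in spleen tumor libraries. Its change was 0.16 ± 0.10 (SE, adjusted p 0.151) against quiescent and -0.40 ± 0.09 (adjusted p 0.00079) against activated cells; the first passed with RLE factors (adjusted p 0.0469), quantile normalization (0.00606) and DESeq2 (0.0368), and the second was lost with the spleen tumors alone (0.0755).

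Of the 8 assembly factors, 6 were higher in tumors than in quiescent cells (36.8% of all genes). Against activated cells 7 were lower in tumors (27.0% of all genes), and 7 were higher after LPS (25.5%). POMP, the chaperone that matures the core particle, was at 68.5, 67.7, 62.0 and 86.0 CPM in quiescent and 157, 156, 139.7, 151 and 153 CPM in activated libraries. Its tumor values were 73.0, 93.0 and 112 CPM in the MLN and 89.8, 101 and 126 CPM in the spleen (lowest, median, highest), all below the activated libraries. The changes were 0.45 ± 0.10 (SE, adjusted p 0.00077) against quiescent and -0.57 ± 0.09 (adjusted p 3.5e-05) against activated cells. PSMG1, a chaperone of the alpha ring, was scarce, with 9.48, 12.6, 11.1 and 11.6 CPM in quiescent and 34.3, 33.4, 32.8, 34.3 and 33.2 CPM in activated libraries. Tumors lay between them without overlap, from 16.6 to 29.7 CPM in the MLN and from 16.6 to 27.2 CPM in the spleen, with changes of 0.83 ± 0.10 (SE, adjusted p 3.4e-06) and -0.69 ± 0.08 (adjusted p 4.3e-06). With quantile normalization the calls of PSMD9, PSMG3 and PSMG4 against quiescent cells were lost (adjusted p 0.178, 0.361 and 0.952) and the change of PSMG1 was 0.45. Against activated cells PSMD5 lost its call with the spleen tumors alone (adjusted p 0.304) and without activated library 1 (0.0968) or 2 (0.0601). The base chaperones PSMD5 and PSMD10 did not pass against quiescent cells, at -0.11 ± 0.10 and -0.04 ± 0.08 (SE).

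The activators of the core particle divided. PSME3, which forms the nuclear activator, was at 164, 156, 172 and 156 CPM in quiescent and 373, 382, 344, 356 and 342 CPM in activated libraries, with tumors from 187 to 265 CPM in the MLN and from 192 to 321 CPM in the spleen. The 3 ranges did not overlap, and the changes were 0.48 ± 0.07 (SE, adjusted p 4.0e-05; 0.74 with quantile normalization) and -0.60 ± 0.07 (adjusted p 1.2e-06). PSME1 and PSME2 form the interferon-inducible activator. PSME2 was at 103, 110.05, 115 and 120.2 CPM in quiescent, 224, 227, 215, 223 and 214 CPM in activated, 79.3, 113 and 152 CPM in MLN tumor and 69.9, 93.9 and 142 CPM in spleen tumor libraries (lowest, median, highest). Tumors spanned the quiescent range and stayed below every activated library, at -0.01 ± 0.11 (SE, adjusted p 0.957) against quiescent and -0.92 ± 0.10 (adjusted p 1.7e-06) against activated cells.

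PSME1 gave changes of 0.20 ± 0.10 (SE, adjusted p 0.0768) and -0.33 ± 0.09 (adjusted p 0.0045), with 179.8 to 192 CPM in quiescent, 266 to 295 CPM in activated, 164 to 244 CPM in MLN tumor and 131 to 292 CPM in spleen tumor libraries. The first passed in 5 alternatives, among them DESeq2 (adjusted p 0.00915), RLE factors (0.0191) and leaving out mouse 1613 (0.0231), and the second was lost with quantile normalization (0.0931) and with the spleen tumors alone (0.0592). PSME4, an activator linked to histone breakdown, was at 139.7 to 149.8 CPM in quiescent, 164 to 173 CPM in activated, 139.5 to 179 CPM in MLN tumor and 135 to 253 CPM in spleen tumor libraries. It passed in no comparison (adjusted p 0.148, 0.748 and 0.318 in the order used for PSMB9). The first passed with DESeq2 (adjusted p 0.0436), with quantile normalization (0.38, adjusted p 0.00777) and without the 4 tumors of low immunoglobulin share (0.0494). The third passed in the fit of control libraries alone with the replicate number as a block (0.23, adjusted p 0.00116). Every activated library lay above every quiescent one. PSMF1, a protein that inhibits the core particle in vitro, was at 32.5 to 38.1 CPM in quiescent, 51.9 to 60.0 CPM in activated, 32.75 to 49.4 CPM in MLN tumor and 37.5 to 99.2 CPM in spleen tumor libraries. It rose by 0.44 ± 0.14 (SE, adjusted p 0.0089) against quiescent cells, a call lost with the MLN tumors alone (0.0942), and by 0.70 with the spleen tumors alone. Its change of -0.17 ± 0.12 (adjusted p 0.237) against activated cells did not pass, but did with the MLN tumors alone (-0.46, adjusted p 0.000785).

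A second entry under the name PSME2 behaved differently from the first and is not counted among the 46. It was at 59.1, 50.04, 58.2 and 50.2 CPM in quiescent and 8.33, 7.61, 8.06, 9.70 and 9.25 CPM in activated libraries, and from 7.91 to 33.5 CPM in MLN and from 7.22 to 35.9 CPM in spleen tumors. It fell by 2.73 ± 0.23 (log2, SE) after LPS, was lower in tumors than in quiescent cells by -1.44 ± 0.19 and higher than in activated cells by 1.29 ± 0.20 (0.70 without the 4 tumors of low immunoglobulin share). The table carries human names and does not say which mouse gene the entry stands for. PSMC3IP, set apart above, was at 2.83 to 4.49 CPM in quiescent, 14.3 to 18.1 CPM in activated and 4.01 to 16.4 CPM in tumor libraries, with changes of 0.93 ± 0.23 (SE) and -1.05 ± 0.20 in tumors against the 2 controls; the first turned to -0.18 with quantile normalization (adjusted p 0.608).

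Per kilobase of transcript, the most abundant members in quiescent cells were PSME1 (a group median of 259 CPM per kilobase), PSMB8 (129) and PSME2 (128), and the least abundant were PSMD9 (7.97) and PSMG1 (12.3). In activated cells PSME1 (391), PSME2 (254), PSMA6 (240.5) and PSMA7 (239.5) led, and PSMD9 (13.3) and PSMD5 (14.3) were the lowest. Among tumors PSME1 led in both tissues (322 in the MLN and 268 in the spleen), followed by PSMA7 (166 and 170.3). The neighbours PSMB8 and PSME2 in quiescent cells and PSMA6 and PSMA7 in activated cells lay closer together than the spread between their libraries.

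Tumors varied more than controls. The median over members of the SD of log2(CPM + 1) was 0.0763 in quiescent, 0.0804 in activated, 0.261 in MLN tumor and 0.304 in spleen tumor libraries. For all genes tested these medians were 0.108, 0.103, 0.406 and 0.481. Among the roles, the constitutive catalytic genes had the widest spread in MLN tumors (0.343), while in spleen tumors the inhibitor (0.505) and the activators (0.398) exceeded them (0.386).

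Between MLN and spleen tumors 0 of 46 members passed in either direction, and 0.0% of all genes did. At an unadjusted p under 0.05, 2 members were lower in the MLN and 0 higher, while 4.39% of all genes reached it. DESeq2 called 16 genes higher and 4 lower over the whole table, none of them a member. Those 2 members, a share of the 46 close to that of all genes, were PSMD9, a chaperone of the base, and PSMF1. Their changes were -0.51 ± 0.22 and -0.50 ± 0.22 (SE, both with an adjusted p of 0.9995) in the fit without the mouse as a block. In the same libraries PSMD9 was lower in the MLN tumor in 6 of 6 mice that gave both, and PSMF1 in 5 of 6. The PSMD9 differences were -0.06 to -1.18 on the log2(CPM + 1) scale. These counts add no separate support for the 2 genes.

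The direction of the difference varied between mice. The MLN tumor was higher for 37 of 46 members in mouse 1610 (median difference 0.33), for 5 in mouse 1611 (-0.54), for 21 in mouse 1613 (-0.01), for 16 in mouse 1614 (-0.09), for 2 in mouse 1615 (-0.37) and for 23 in mouse 1616 (0.00). The mice with the largest median differences were also those whose 2 tumors differed most in immunoglobulin share. It was 26.3% in the MLN and 1.13% in the spleen of mouse 1610, 2.01% and 17.5% in mouse 1611, and 10.1% and 1.03% in mouse 1615. Most members were higher in the tumor of higher immunoglobulin share in mice 1610 and 1611 and in that of lower share in mouse 1615. The part of plasma cell content in this was not tested. The 5 members higher in the MLN tumor of mouse 1611 were the immunoproteasome genes PSMB8, PSMB9 and PSMB10, by 0.35, 0.91 and 0.84, and the interferon-inducible activators PSME1 and PSME2, by 0.82 and 0.98. In mouse 1616 these 5 differed by 0.30 to 0.74, all higher in the MLN tumor. In mouse 1615 they differed by -1.01 to -0.45, all lower, and in mice 1610, 1613 and 1614 their directions were mixed.

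**Figure D4:**
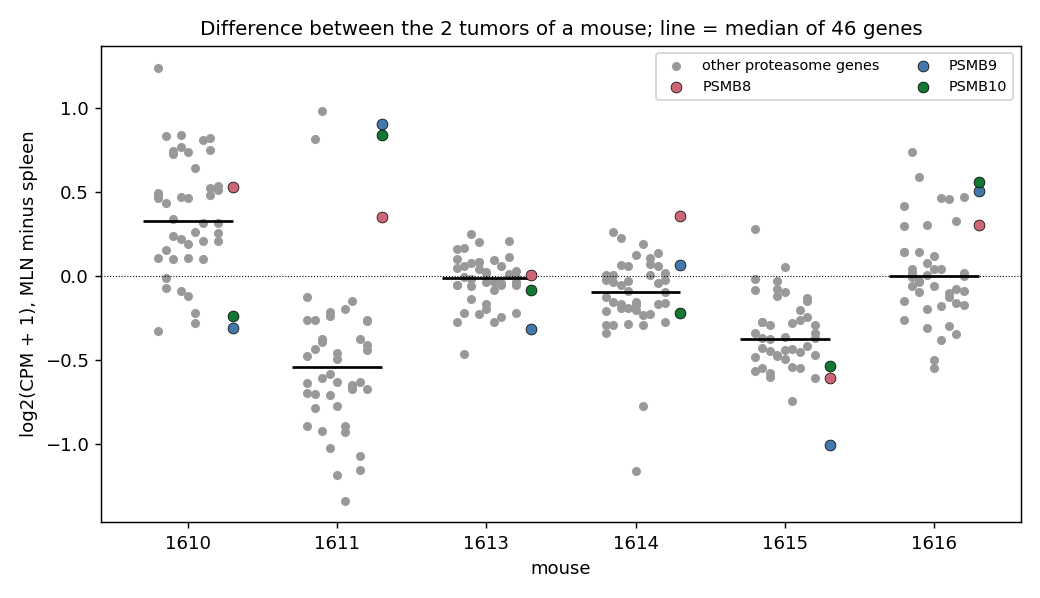
Difference between the MLN and the spleen tumor of each of the 6 mice that gave both, on the log2(CPM + 1) scale, for each of the 46 genes, with the median as a line. The median is above 0 in mouse 1610 (0.33) and below 0 in mice 1611 (-0.54) and 1615 (-0.37), and the 3 immunoproteasome genes are marked in color.

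Genes that regulate or feed the proteasome were called at shares close to those of all genes in tumors against quiescent cells (36.8% higher, 31.9% lower). Of 22 regulators and shuttle factors tested, 9 were higher and 6 lower in tumors than in quiescent cells. Against activated cells 1 was higher and 10 lower, while 36.2% of all genes were higher and 27.0% lower. After LPS 11 were higher and 4 lower, while 25.5% of all genes were higher and 34.1% lower. In these 2 comparisons the shares were not close to those of all genes. NFE2L1, the transcription factor that restores proteasome gene expression when proteasome activity falls, was at 218.5, 189, 209 and 237 CPM in quiescent and 520.5, 563, 559, 549 and 562 CPM in activated libraries. Tumors ran from 122 to 170.1 CPM in the MLN and from 120.4 to 219 CPM in the spleen, below both controls when the tumors of a mouse were summed. The log2 change was -0.52 ± 0.10 (SE, adjusted p 0.00034) against quiescent and -1.82 ± 0.09 (adjusted p 2.9e-10) against activated cells; the first was -0.28 with quantile normalization and was lost with the spleen tumors alone (adjusted p 0.0539). In the main test NFE2L1 was lower in tumors than in quiescent cells while 33 proteasome genes were higher. After LPS NFE2L1 rose by 1.30 ± 0.12 (SE, adjusted p 1.1e-07) while 42 proteasome genes were higher. The part of NFE2L1 in these changes was not tested. The antioxidant response factor NFE2L2, a relative of NFE2L1, had a higher level in tumors than in activated cells (0.67 ± 0.16). Its level was lower after LPS (-0.61 ± 0.18). NFE2L3 was at 0 to 0.642 CPM, below the filter, and had no test.

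Among the other regulators, UCHL5, a deubiquitinase of the regulatory particle, was higher in tumors than in quiescent cells by 1.10 ± 0.21 (log2, SE), and MAFF, a small partner of NFE2L1, by 2.97 ± 0.95. MAFF was at 0.435 to 0.926 CPM in quiescent cells and at 33.2 CPM in the MLN tumor of mouse 1611 and 16.4 CPM in the spleen tumor of mouse 1616, but at 0.317 to 5.22 CPM in the other 12 tumors, and quantile normalization ended the call (0.16, adjusted p 0.913). The MLN tumor of mouse 1611 also held 384 CPM of the macrophage marker CD14, and the spleen tumor of mouse 1616 held 8.82 CPM. The macrophage markers ADGRE1 and C1QA were at 55.6 and 83.6 CPM in the MLN tumor of mouse 1611. In the MLN tumor of mouse 1615 they were at 295 and 464 CPM, with MAFF at 3.31 CPM. The part of macrophages in this was not tested. UBQLN1, a shuttle that brings ubiquitinated proteins to the proteasome, was lower by -0.60 ± 0.08. MAFG, another small partner, was lower in tumors than in activated cells by -0.73 ± 0.17, a call lost with the spleen tumors alone (adjusted p 0.113). After LPS the segregase VCP, which extracts substrates from membranes and complexes, rose by 1.38 ± 0.27 and the small partner MAFK fell by 0.44 ± 0.11. Among the ubiquitin genes and activating enzymes, UBB, a polyubiquitin gene, was above the activated level in tumors (0.31 ± 0.12), a call lost in 10 alternatives, among them leaving out mouse 1616 (0.11, adjusted p 0.223). The activating enzyme UBA6 was lower in tumors than in both controls (-0.50 ± 0.09 and -1.02 ± 0.09), and UBA1, the main activating enzyme, was lower than in activated cells (-0.60 ± 0.09); UBA6 and UBA1 rose after LPS by 0.53 ± 0.10 and 0.51 ± 0.10.

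Genes that act with the immunoproteasome in peptide presentation, or that control it under interferon, were counted beside the shares of all genes. Of 14 tested, 2 were higher and 5 lower in tumors than in quiescent cells (36.8% and 31.9% of all genes). Against activated cells 2 were higher and 4 lower (36.2% and 27.0%), and after LPS 1 was higher and 2 lower (25.5% and 34.1%). The shares called lower in tumors were close to those of all genes, and the other shares were smaller. IRF1, a transcription factor that induces PSMB8, PSMB9 and PSMB10 under interferon, was at 182 to 196 CPM in quiescent, 65.4 to 82.2 CPM in activated, 99.1 to 179.8 CPM in MLN tumor and 79.4 to 169 CPM in spleen tumor libraries. It was lower in tumors than in quiescent cells (-0.53 ± 0.11, SE, adjusted p 0.00041), higher than in activated cells (0.87 ± 0.10) and fell by 1.40 ± 0.12 after LPS. IRF2 was lower in tumors (-0.92 ± 0.18) and after LPS (-1.19 ± 0.20), and IRF8 was lower in tumors than in activated cells (-0.93 ± 0.28), a call lost with the spleen tumors alone (adjusted p 0.248) and with quantile normalization (0.0504) and at -1.75 without the 4 tumors of low immunoglobulin share. PDIA3 and ERAP1, which load and trim peptides in the endoplasmic reticulum, were higher in tumors than in quiescent cells (0.88 ± 0.32 and 0.59 ± 0.20); PDIA3 was at 0.53 without mouse 1616 and lost its call with the spleen tumors alone (adjusted p 0.0619) and without quiescent library 1 (0.053) or 4 (0.055). The chaperone CANX rose after LPS (0.63 ± 0.21). B2M, the light chain of MHC class I, was above the activated level in tumors (0.36 ± 0.15), a call lost in 10 alternatives, among them leaving out mouse 1616 (0.14, adjusted p 0.20), while TAPBP, which bridges MHC class I to the peptide transporter, was below it (-0.70 ± 0.09).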

How the data were processed

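RNA sequencing of 23 libraries was analysed from one table of the whole series. The table's values are estimated counts per gene and library, deposited by the authors under human gene names; the table is named for TPM, but its values have unequal totals and gather near 1 and 2 at the low end, and so were taken as estimated counts. Per the submitters' processing notes, Trim Galore 0.4.0 and DESeq2 were used and the build was GRCm39; the sources used here do not name the quantifier. Of 61651 entries, 21282 carried values, and identical entries were merged into 15881 profiles.

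Counts were rounded and tested with edgeR 4.0.16 (quasi-likelihood, TMM, 2-sided) in R 4.3.3 over genes at 1 CPM or more in at least 4 libraries, with Benjamini-Hochberg adjustment over all 11633 genes and a threshold of 0.05. All adjusted p-values are edgeR's unless another tool is named or quantile normalization is given. Values with quantile normalization are limma-voom's, so the tool changed along with the scaling. Both tumors of a mouse were summed, and 8 tumor mice, 4 quiescent and 5 activated libraries entered 1 fit; a second fit held the 14 tumor libraries. Equal numbers mark tumors of 1 mouse, per the labels; deviations of paired tumors correlated at -0.202, -0.357, 0.407, -0.293, -0.49 and 0.722. SE, an approximation, is the size of the log2 change over the root of F from edgeR. Totals were 13328866 to 25045814 per library. Ratios and levels per kilobase use the median length of a gene's protein-coding transcripts.

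Members and gene lists were chosen with earlier results of these data known. Named were the catalytic subunits, POMP, ADRM1, the activators and PSMF1, the 4 largest rises and falls among members passing in each comparison, members passing against the majority, NFE2L1 to NFE2L3, and the 2 largest rises and falls of each other list. PSMA3, PSMA7, PSMB1, PSMB4, PSMC4, PSMD3, PSMD4, PSMD5, PSMD9, PSMD10, PSMD12, PSMD13, PSMG3 and PSMG4 were added after their values were seen. Alternatives were RLE factors, limma-voom (limma 3.58.1) with quantile normalization, DESeq2 1.42.0, no filter, leaving out each replicate, MLN or spleen tumors alone, replicate blocks and, added after seeing the data, leaving out 4 tumors of low immunoglobulin share. The scripts were tested on simulated data. A gene of the ubiquitin list is not reported here.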

Additional observations from a re-analysis of the deposited data

Results flagged for a closer look

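Of 84 groups of 4 to 7 libraries checked (21 members in 4 groups), 4 held a library whose gap to its nearest neighbour was large against the range of its group; chance gives this in about 1 in 20 groups. PSMB8 was at 261.2 CPM in activated library 3, below the other activated libraries. PSMD1 was at 201.5 CPM in the MLN tumor of mouse 1616 and PSMD14 at 223.9 CPM in the spleen tumor of the same mouse, above the other tumors of their tissue. PSMD11 was at 109.6 CPM in quiescent library 2, above the other quiescent libraries, which lay within 106 to 106.4 CPM.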

How the results depend on the processing

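The number of members higher in tumors than in quiescent cells (33) ranged from 32 to 41 over 19 alternatives, that of members lower than in activated cells (39) from 30 to 41 over 20, with the lowest for spleen tumors alone (30) and without the 4 tumors of low immunoglobulin share (31), and that of members higher after LPS (42) from 42 to 45 over 14. Leaving out 1 replicate gave 32 to 36, 35 to 41 and 42. Against quiescent cells 0 members were lower; quantile normalization gave 1 (PSMD10), leaving out tumors of low immunoglobulin share 1 (PSMB10), and leaving out 1 replicate 0 to 1. Against activated cells 0 were higher; quantile normalization gave 1 and leaving out 1 replicate 0 to 1 (PSMB10 in both). PSMG4 changed sign against quiescent cells with quantile normalization (-0.013 against 0.43; adjusted p 0.952), as did PSMC3IP (-0.175 against 0.93; adjusted p 0.608); the cause was not tested. Over single members and alternatives, 48 calls were gained, 54 were lost and 1, that of PSMG4, was lost with a change of sign. The other 3255 outcomes were the same, which includes genes that passed in neither fit.

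MLN and spleen tumors gave 0 members in all 20 alternatives, including the mouse as a replicate block (0 higher and 0 lower). Activated and quiescent libraries share only numbers 1 to 4, whose deviations correlated at -0.009, -0.008, -0.017 and 0.003. A fit of these control libraries alone, with that number as a replicate block, called 45 members higher and 1 lower. Of all genes it called 4129 higher and 4297 lower, against 2963 and 3962 in the main test. This fit also left out the tumors, which share the estimate of spread in the main fit. The part of the block itself in the change was not tested. No other call in the text changed with a block apart from PSMB9, PSMD5 and PSME4. Over all genes, quantile normalization called 2237 higher against quiescent cells (4284 in the main test) and 2160 against activated cells (4209), and DESeq2 called 16 higher and 4 lower between MLN and spleen tumors against 0 and 0. Deposited instead of rounded counts left the ratios of catalytic pairs the same within the spread between libraries.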
